A study of Mus musculus with 20 samples.

Results

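Transcript levels of 8 genes of the corticosteroid stress response were examined by RNA-seq in hippocampus and neocortex of WT and miR-324-null mice. The genes were the glucocorticoid receptor *Nr3c1*, the mineralocorticoid receptor *Nr3c2*, the steroid-regenerating enzyme *Hsd11b1*, the corticotropin-releasing hormone receptor *Crhr1*, and *Fkbp5*, *Sgk1*, *Tsc22d3* and *Cdkn1a*, which glucocorticoids are known to induce. They were taken by name, and not by their values, from 35580 annotated genes. Their 63 transcripts were summed per gene in each of 20 samples. The samples fell into 4 groups of 5: hippocampus and neocortex of 13.5 month old male WT mice on a C57BL/6J background, and the same tissues of miR-324-null mice of that age, sex and background, which lack both copies of *Mir324*. No treatment, stressor or hormone is described for any group. The paper does not give the handling of these mice or the time of day of collection. The null allele is a germline CRISPR/Cas9 deletion, carried by every cell and not by neurons alone. The edited embryos carried C57BL/6 and CBA/ca genomes, and C57BL/6J was bred in afterwards. The WT and null lines both descend from crosses of carriers, and whether the mice sequenced were littermates is not given in the sources used here. The loss of *Mir324* was not checked here, because libraries of this kind do not measure so short an RNA. The labels do not say whether a hippocampus and a neocortex sample of the same number came from the same mouse, and p-values measure only the spread between these samples.

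Corticosterone, the glucocorticoid of mice, binds both receptors. The mineralocorticoid receptor has the higher affinity and is known for its high level in hippocampal neurons, while the glucocorticoid receptor is present in most brain cells and is occupied mainly at stress levels of the hormone. Bound receptors enter the nucleus and switch on target genes through a palindromic glucocorticoid response element, and FKBP51, the product of *Fkbp5*, lowers the receptor's affinity for hormone in a short feedback loop.

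Depth was 12752439 to 19617765 estimated counts per sample. The labelled tissues were checked against marker genes given in CPM (estimated counts scaled to the same library size) and summed over each list. The sum of 10 markers of the hippocampal fields (dentate gyrus and the CA regions) was 769 to 933 in WT hippocampus, 721 to 907 in null hippocampus and 176 to 218 in WT neocortex. In null neocortex it was 345, 316, 295 and 322 in samples 1 to 4 and 177 in sample 5, so that sample 5 alone lay within the WT range. The sum of 10 markers of neocortical layers was 1227 to 1493 in WT and 1055 to 1332 in null neocortex, against 315 to 523 over all hippocampus samples. The sum of 8 choroid plexus markers was 4571 in hippocampus WT sample 3, 3912 in hippocampus null sample 5 and 817 in neocortex null sample 2, against at most 145 in every other sample. Markers of striatal neurons reached 215 to 565 in WT and 335 to 904 in null neocortex, and no marker of any list was at 0 in a whole group. The part of these differences in the results was not tested. Fits with a marker sum as a covariate are given as values only.

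The sequences below show the micro-RNA that the null mice lack and its matches among the 8 genes. *Mir324* lies on chromosome 11 and gives a 5p and a 3p arm. The mature sequences are from RefSeq (GRCm38.p6, plus strand, chr11:70012060-70012082 and chr11:70012095-70012114), with the seed, bases 2 to 8, in capitals.
miR-324-5p: cGCAUCCCcuagggcauuggugu
miR-324-3p: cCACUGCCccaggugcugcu

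The annotated 3′ UTRs of the 8 genes were searched on the transcribed strand for the reverse complement of each seed, GGGATGC for 5p and GGCAGTG for 3p. For miR-324-5p, 2 of the 8 genes held a match, against 11.1% of 14795 genes with an annotated 3′ UTR. For miR-324-3p, 0 of the 8 did, against 19.8%. The 5p matches, in capitals with flanking bases (GRCm38, plus strand), were an 8mer and a 7mer in *Crhr1*, in the only annotated transcript, Crhr1-201 (chr11:104174634-104174640 and chr11:104174923-104174929), and a 7mer in *Nr3c2*, in Nr3c2-203, its most abundant transcript, and a further transcript (chr8:77243662-77243668). These matches are a description and not measured sites.
Crhr1, first match: tccctgcccctGGGATGCagacctgtaag
Crhr1, second match: agcgatgccttGGGATGCtaccgaggacc
Nr3c2: tgcttccatccGGGATGCtgctgcagcat

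Promoter windows were searched because 4 of the genes are receptor targets. Of the 8 genes, 7 had RefSeq promoter windows, 15 in all. These windows cover only bases close to a transcript start, so elements farther upstream or within introns were not searched. The full palindrome of the glucocorticoid response element, which is AGAACA, any 3 bases (NNN) and the reverse complement TGTTCT, searched on both strands, occurred in 1 of these 15 windows and in 3 of 32851 windows of all genes, or 0.00913%. The match was at *Sgk1* (GRCm38.p6, plus strand, chr10:21993701-21993715) and is printed in capitals with flanking bases. It began 189 bases before the start of Sgk1-202, a transcript with 1.69% of *Sgk1* TPM (transcript abundance scaled for length and library size), and 965 bases before the start of the main transcript, Sgk1-201. A relaxed form, GNACA, NNN and TGTNC, which overlaps the full one, was found in the same single window and in 0.475% of all windows.
Sgk1: tgcggaaAGAACAGAATGTTCTcggagat

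The first comparison asked how the 8 genes differ between the tissues in each genotype. A gene was called when its p from edgeR's quasi-likelihood test, after Benjamini-Hochberg adjustment across the genes tested, was at or under 0.05. Levels are TMM-normalised CPM. In WT mice 7 of the 8 genes were called, 3 higher and 4 lower in hippocampus, against 36.1% of all 14894 genes tested. In null mice 7 were called in the same directions, against 27.4% of 15033. *Nr3c2*, *Fkbp5* and *Hsd11b1* were higher in hippocampus, *Nr3c1*, *Crhr1*, *Cdkn1a* and *Tsc22d3* were lower, and *Sgk1* was not called. Hippocampus and neocortex did not overlap for 7 genes in WT mice, all but *Sgk1*, against 25.9% of 15391 genes, and for 6 in null mice, all but *Sgk1* and *Tsc22d3*, against 20.8%. These are whole tissues, in which fewer cells of a type and less RNA per cell cannot be told apart.

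**Figure D1:**
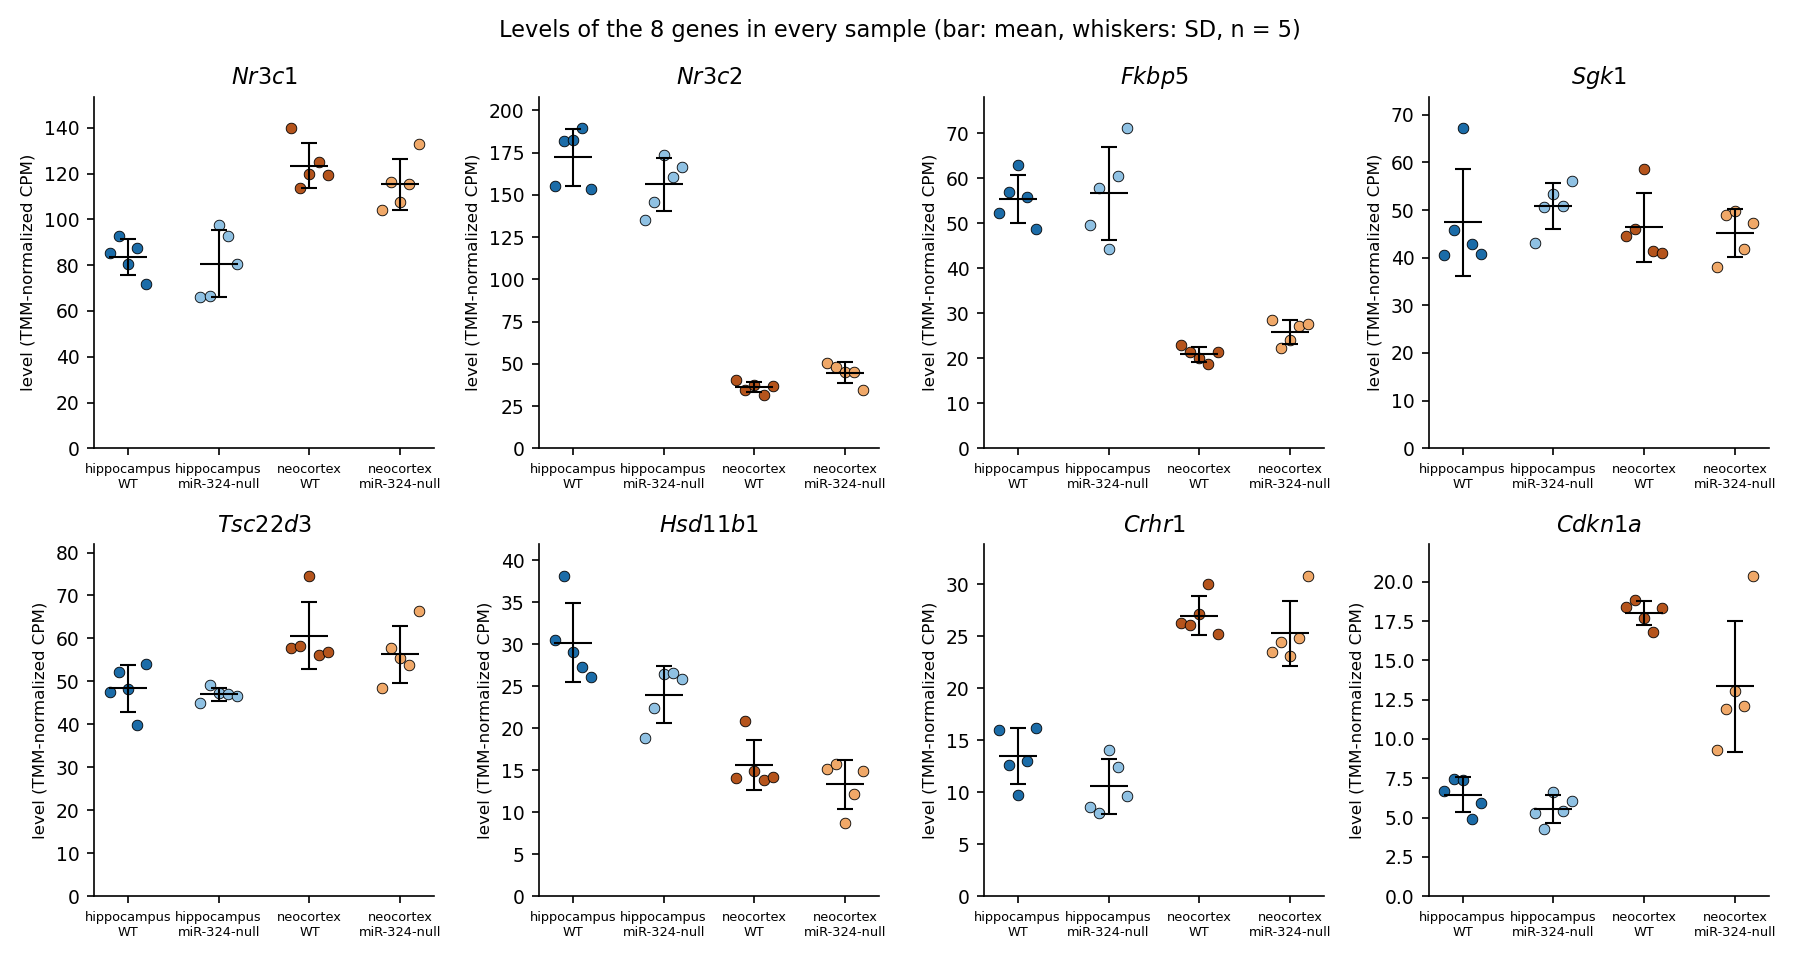
Level of each of the 8 genes in every sample (TMM-normalised CPM, linear axis from 0) by tissue and genotype, with points for samples and bars for the group mean and SD (n = 5). *Nr3c2* and *Fkbp5* sit higher in hippocampus, *Nr3c1*, *Crhr1* and *Cdkn1a* sit higher in neocortex, and *Sgk1* overlaps in all 4 groups.

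The second comparison asked what changes when miR-324 is absent, in each tissue. In hippocampus 0 of the 8 genes were called between genotypes by edgeR's quasi-likelihood test, against 0.128% of 14796 genes, 0.0743% higher and 0.0541% lower in null mice. At an unadjusted p under 0.05 there was 1 of the 8, *Hsd11b1*, against 11.1% of all genes, and DESeq2 called 0, against 0.941%. In neocortex 0 of the 8 were called, against 0.315% of 14930 genes. At an unadjusted p under 0.05 there were 3 of the 8, *Fkbp5*, *Nr3c2* and *Cdkn1a*, against 12.2% of all genes, and DESeq2 called 1, *Fkbp5*, against 1.61%. For 0 of the 8 genes were WT and null samples of a tissue fully apart, against 2.48% of genes in hippocampus and 2.33% in neocortex. The difference of the genotype effect between the tissues was called for 0 of the 8, against 0.0195% of 15391 genes. At an unadjusted p under 0.05 there was 1, *Nr3c2*, against 5.57% of all genes, and DESeq2 called 0, against 0.076%.

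**Figure D2:**
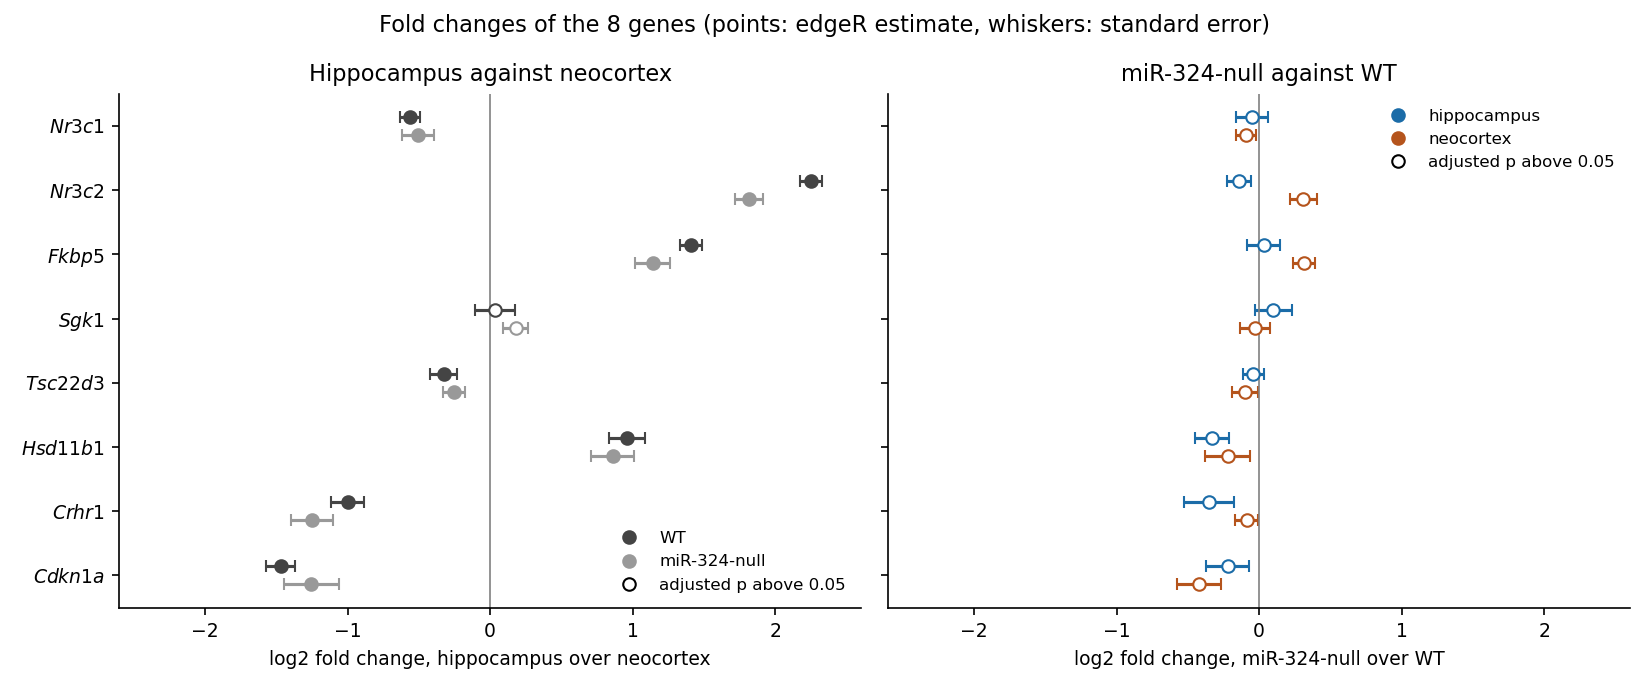
Fitted log2 fold change of each of the 8 genes with its standard error, for null against WT in each tissue and for hippocampus against neocortex in each genotype. The tissue differences run from 2.25 for *Nr3c2* to −1.47 for *Cdkn1a* in WT mice, while all genotype differences lie between −0.42 and 0.32.

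The receptors are given first. *Nr3c2* (ENSMUSG00000031618, GRCm38 chromosome 8, 76899442 to 77245012, plus strand) encodes the mineralocorticoid receptor. Its level in WT hippocampus was 155, 182, 182, 189 and 153 CPM in samples 1 to 5, and in null hippocampus 135, 146, 174, 161 and 167 CPM. In WT neocortex it was 40.2, 34.5, 37.7, 31.8 and 36.9 CPM, and in null neocortex 50.5, 48.1, 45.2, 45.4 and 34.6 CPM. Every hippocampus sample was far above every neocortex sample. The mean in WT hippocampus, 172 ± 16.8 CPM (SD, n = 5), was 4.76 times that in WT neocortex, 36.2 ± 3.18 CPM. The fitted log2 fold change was 2.25 (SE 0.08, adjusted p = 4.5e-10 by edgeR's quasi-likelihood test). In null mice the means were 156 ± 15.7 and 44.7 ± 6.08 CPM, a ratio of 3.49 and a log2 fold change of 1.82 (SE 0.10, adjusted p = 4.2e-07, same test). This was the largest tissue difference of the 8 genes in both genotypes.

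Between genotypes, *Nr3c2* gave a log2 fold change of −0.14 in hippocampus (SE 0.08, adjusted p = 0.545, edgeR) and 0.31 in neocortex (SE 0.09, adjusted p = 0.220, edgeR). The difference of these effects, hippocampus minus neocortex, was −0.44 (SE 0.13, adjusted p = 0.679, edgeR), and none of the 3 was called. In neocortex, null samples 1 to 4 were above all 5 WT samples, and null sample 5 was within the WT range. The same 4 null samples had hippocampal-field marker sums of 295 to 345 CPM and sample 5 one of 177 CPM, against 176 to 218 CPM in WT. With that sum as a covariate the log2 fold change of *Nr3c2* was 0.026 (adjusted p = 0.965, edgeR). Among null samples only sample 5 lay in the WT range of the sum, so this fit cannot tell the sum and genotype apart. Without null sample 5 the log2 fold change of *Nr3c2* was 0.39 and was called (adjusted p = 0.00863, edgeR), as were 3.76% of 15071 genes. The value also rested on how transcripts were weighted. Nr3c2-205, an annotated processed transcript of 350 bases, held 19.8% of *Nr3c2* TPM in WT neocortex on a mean of 3.99 estimated counts (0 to 7.64), and 0.325% in null neocortex. With an offset for mean transcript length the log2 fold change was −0.028 (adjusted p = 0.963, edgeR).

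*Nr3c1* (ENSMUSG00000024431, GRCm38 chromosome 18, 39410545 to 39519421, minus strand) encodes the glucocorticoid receptor and lay the other way round. In WT hippocampus its level was 85.2, 93.0, 80.6, 87.5 and 71.9 CPM, and in null hippocampus 65.9, 66.4, 97.5, 92.8 and 80.5 CPM. The WT neocortex samples had 139.7, 113.8, 119.7, 125.0 and 119.2 CPM, and in null neocortex 104.1, 116.3, 107.7, 115.4 and 132.8 CPM. All neocortex samples were above all hippocampus samples. The mean in hippocampus was 0.677 times that in neocortex in WT mice (83.6 ± 7.94 against 124 ± 9.90 CPM, SD, n = 5) and 0.699 times in null mice (80.6 ± 14.6 against 115 ± 11.1 CPM). The log2 fold changes were −0.56 (SE 0.07, adjusted p = 3.4e-05) and −0.51 (SE 0.11, adjusted p = 0.00507, both by edgeR). Between genotypes the adjusted p was 0.907 in hippocampus (log2 fold change −0.05) and 0.645 in neocortex (−0.09, edgeR), with overlapping ranges in both tissues.

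Per length, in TPM, the level of *Nr3c2* divided by that of *Nr3c1* was 2.22 ± 0.153 (SD, n = 5, range 1.99 to 2.38) in WT hippocampus and 2.26 ± 0.111 (2.10 to 2.41) in null hippocampus. In neocortex it was 0.392 ± 0.0621 (0.312 to 0.484) in WT and 0.394 ± 0.0735 (0.265 to 0.445) in null mice. Mineralocorticoid receptor transcripts were thus the more abundant in all 10 hippocampus samples and glucocorticoid receptor transcripts in all 10 neocortex samples, with overlapping ratios of the genotypes in each tissue. The short Nr3c2-205 held 19.8% of *Nr3c2* TPM in WT neocortex, on a mean of 3.99 estimated counts, and 0.325% in null neocortex. In hippocampus it held 0% in WT and 6.94% in null mice. The likeness of the genotypes in this ratio therefore rests in part on few counts. In CPM the neocortical means of *Nr3c2* and *Nr3c1* were 36.2 and 124 in WT and 44.7 and 115 in null mice.

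**Figure D3:**
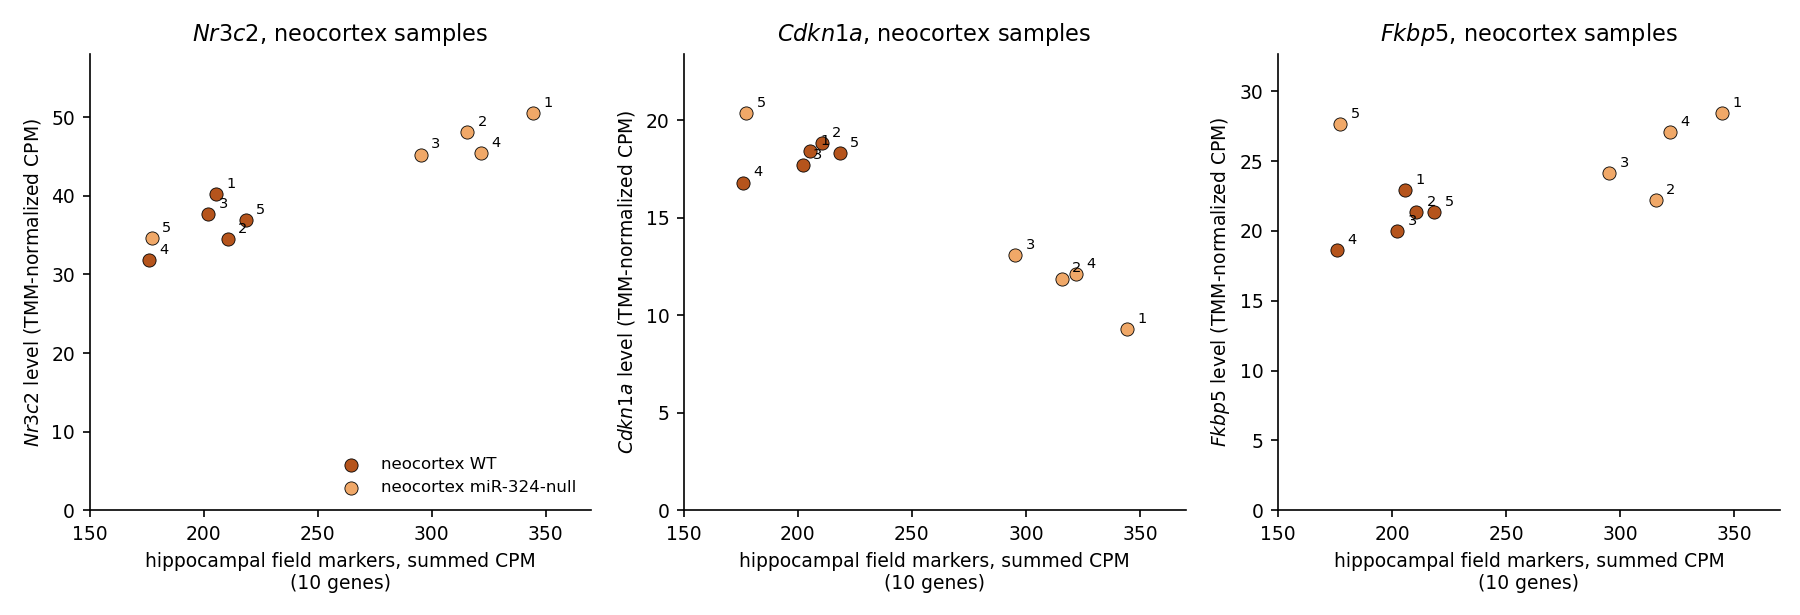
Level of *Nr3c2*, *Cdkn1a* and *Fkbp5* (TMM-normalised CPM) against the summed CPM of 10 hippocampal-field markers in the 10 neocortex samples, with points coloured by genotype. Null samples 1 to 4 lie at marker sums of 295 to 345, and null sample 5 lies at 177 among the WT samples.

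The ligand and signal side was represented by *Hsd11b1* and *Crhr1*. *Hsd11b1* (ENSMUSG00000016194, GRCm38 chromosome 1, 193221634 to 193264075, minus strand) encodes the enzyme that regenerates active corticosterone from its inactive 11-keto form inside cells. Its level was 30.5, 38.1, 29.1, 27.2 and 26.1 CPM in WT hippocampus and 18.8, 22.3, 26.4, 26.5 and 25.9 CPM in null hippocampus. In WT neocortex it was 14.1, 20.8, 14.9, 13.8 and 14.2 CPM, and in null neocortex 15.1, 15.7, 8.68, 12.2 and 14.9 CPM. The tissues did not overlap within a genotype. The mean was 1.94 times higher in hippocampus in WT mice (30.2 ± 4.73 against 15.6 ± 2.97 CPM, log2 fold change 0.96, SE 0.13, adjusted p = 5.2e-05, edgeR). It was 1.80 times higher in null mice (24.0 ± 3.37 against 13.3 ± 2.92 CPM, log2 fold change 0.86, SE 0.15, adjusted p = 0.00106, edgeR). In hippocampus the null samples were lower by a log2 fold change of −0.33 that did not pass the test (SE 0.12, adjusted p = 0.351, edgeR), with 3 null samples and 2 WT samples between 25.9 and 27.2 CPM. In neocortex it was −0.22 (SE 0.16, adjusted p = 0.628, edgeR). *Hsd11b1* overlaps *Lamb3* and 4930570N18Rik on the opposite strand, and the sources used here do not give whether kallisto was told the strand, so reads could be shared between them.

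*Crhr1* (ENSMUSG00000018634, GRCm38 chromosome 11, 104132855 to 104175523, plus strand) encodes the receptor through which corticotropin-releasing hormone acts on forebrain neurons and the pituitary. It lies 34.1 Mb from *Mir324* on the same chromosome. Its level was 16.0, 12.6, 9.68, 13.0 and 16.2 CPM in WT hippocampus and 8.58, 7.96, 14.1, 12.4 and 9.64 CPM in null hippocampus. Levels in WT neocortex were 26.3, 26.1, 27.2, 30.1 and 25.2 CPM, and in null neocortex 23.4, 24.4, 23.1, 24.8 and 30.8 CPM. Every neocortex sample was above every hippocampus sample. The hippocampal mean was 0.50 times the neocortical mean in WT mice (13.5 ± 2.71 against 27.0 ± 1.87 CPM, log2 fold change −1.0, SE 0.12, adjusted p = 1.7e-05, edgeR). It was 0.417 times in null mice (10.5 ± 2.63 against 25.3 ± 3.15 CPM, log2 fold change −1.25, SE 0.15, adjusted p = 5.9e-05, edgeR).

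The *Crhr1* transcript carries the pair of miR-324-5p seed matches printed above, and its level was not called between genotypes. The log2 fold change, null against WT, was −0.35 in hippocampus (SE 0.18, adjusted p = 0.488) and −0.08 in neocortex (adjusted p = 0.727, both by edgeR). In hippocampus the lowest samples were null samples 1 and 2, which also had low sums of neocortical-layer markers, 330 and 315 CPM, while null samples 3 and 4, with 523 and 513 CPM, lay within the WT range of *Crhr1*. With that sum as a covariate the hippocampal log2 fold change was −0.26 (adjusted p = 0.362, edgeR).

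The receptor targets follow. *Fkbp5* (ENSMUSG00000024222, GRCm38 chromosome 17, 28399094 to 28517527, minus strand) encodes the co-chaperone FKBP51. Its level was 52.2, 56.9, 62.9, 55.7 and 48.8 CPM in WT hippocampus and 49.6, 57.9, 44.2, 60.5 and 71.0 CPM in null hippocampus. The WT neocortex samples had 22.9, 21.3, 20.002, 18.6 and 21.3 CPM, and in null neocortex 28.4, 22.2, 24.1, 27.1 and 27.6 CPM. All hippocampus samples were above all neocortex samples. The hippocampal mean was 2.65 times the neocortical mean in WT mice (55.3 ± 5.33 against 20.8 ± 1.61 CPM, log2 fold change 1.41, SE 0.07, adjusted p = 1.5e-08, edgeR). It was 2.19 times in null mice (56.6 ± 10.3 against 25.9 ± 2.64 CPM, log2 fold change 1.14, SE 0.12, adjusted p = 2.3e-05, edgeR).

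Between genotypes *Fkbp5* had the smallest adjusted p of the 8 genes, in neocortex. There, 4 of 5 null samples were above all WT samples and null sample 2 was within the WT range. The log2 fold change was 0.32 (SE 0.08, adjusted p = 0.134, edgeR), which did not pass the threshold, and by DESeq2 it was 0.31 with an adjusted p of 0.0424. The fold change stayed at 0.32 with the hippocampal-field sum as a covariate (adjusted p = 0.370, edgeR), a fit with the limit given for *Nr3c2*. Without null sample 5 the fold change was 0.29 (adjusted p = 0.0691, edgeR). In hippocampus it was 0.03 (adjusted p = 0.949, edgeR), and the difference of the effects between tissues, −0.28, was not called (adjusted p = 0.902, edgeR).

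*Sgk1* (ENSMUSG00000019970, GRCm38 chromosome 10, 21882184 to 21999903, plus strand) encodes serum- and glucocorticoid-regulated kinase 1, which phosphorylates the ubiquitin ligase NEDD4-2 and FOXO transcription factors. Its level was 40.5, 45.8, 67.1, 42.9 and 40.7 CPM in WT hippocampus and 43.1, 50.7, 53.4, 50.8 and 56.1 CPM in null hippocampus. Levels in WT neocortex were 44.6, 46.0, 58.7, 41.4 and 41.0 CPM, and in null neocortex 38.0, 48.9, 49.8, 41.8 and 47.3 CPM. WT sample 3 was the highest of its group in both tissues and stood clear of the other WT samples. In hippocampus that sample was also the one with 4571 CPM of choroid plexus markers, while in neocortex the same number had 40.7 CPM of them. *Sgk1* was not called between tissues, with a log2 fold change of 0.04 in WT (SE 0.14, adjusted p = 0.878) and 0.18 in null mice (SE 0.09, adjusted p = 0.153, both by edgeR). Without the hippocampus samples with high choroid plexus markers these were −0.12 and 0.14. Between genotypes it was 0.10 in hippocampus (adjusted p = 0.827) and −0.03 in neocortex (adjusted p = 0.945, edgeR). Leaving out 1 sample moved the hippocampal value between 0.047 and 0.26, the highest without WT sample 3 (adjusted p = 0.310, edgeR), and it was not called in any of these fits.

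*Tsc22d3* (ENSMUSG00000031431, GRCm38 chromosome X, 140539528 to 140600659, minus strand) encodes the glucocorticoid-induced leucine zipper protein GILZ. Its level was 47.5, 52.2, 48.2, 39.9 and 53.9 CPM in WT hippocampus and 45.03, 49.2, 47.3, 47.0 and 46.5 CPM in null hippocampus. In WT neocortex it was 57.7, 58.2, 74.5, 56.2 and 56.8 CPM, and in null neocortex 48.4, 57.7, 55.4, 53.8 and 66.4 CPM. The tissues did not overlap in WT mice, while in null mice the lowest neocortex sample lay below the highest hippocampus sample. The log2 fold change, hippocampus against neocortex, was −0.33 in WT (SE 0.09, adjusted p = 0.0139) and −0.25 in null mice (SE 0.07, adjusted p = 0.0229, both by edgeR), with ratios of means of 0.797 and 0.834. Without hippocampus null sample 1 the second was −0.24 and no longer called (adjusted p = 0.0513, edgeR). Between genotypes it was −0.04 in hippocampus (adjusted p = 0.881) and −0.10 in neocortex (adjusted p = 0.720, edgeR).

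*Cdkn1a* (ENSMUSG00000023067, GRCm38 chromosome 17, 29090976 to 29100727, plus strand) encodes the cell-cycle inhibitor p21, induced by p53 as well as by glucocorticoids. Its level was 6.70, 7.42, 7.41, 4.88 and 5.91 CPM in WT hippocampus and 5.31, 4.29, 6.65, 5.44 and 6.06 CPM in null hippocampus. The neocortical levels of WT mice were 18.4, 18.8, 17.7, 16.8 and 18.3 CPM, and in null neocortex 9.30, 11.9, 13.1, 12.1 and 20.4 CPM. All neocortex samples were above all hippocampus samples. The hippocampal mean was 0.359 times the neocortical mean in WT mice (6.46 ± 1.08 against 18.01 ± 0.786 CPM, log2 fold change −1.47, SE 0.10, adjusted p = 1.7e-07, edgeR). It was 0.416 times in null mice (5.55 ± 0.886 against 13.3 ± 4.16 CPM, log2 fold change −1.25, SE 0.19, adjusted p = 0.000412, edgeR).

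In neocortex, *Cdkn1a* of null samples 1 to 4 was below all 5 WT samples and null sample 5 was above them. The log2 fold change was −0.42 (SE 0.16, adjusted p = 0.303, edgeR). Without null sample 5 it was −0.62 and was called (adjusted p = 0.00427, edgeR), as were 3.76% of 15071 genes. With the hippocampal-field sum as a covariate it was −0.043 (adjusted p = 0.961, edgeR), a fit with the limit given for *Nr3c2*. The summed CPM of 10 immediate early genes, which mark recent neuronal activity, ran from 811 to 1466 in WT and from 343 to 862 in null neocortex. All 10 had a log2 fold change below 0, with a median of −0.70 against 0.0046 over all genes tested, and 1, *Egr1*, was called (−0.91, adjusted p = 0.0486, edgeR), against 0.315% of all genes. Null sample 5, with 20.4 CPM of *Cdkn1a*, had an immediate early gene sum of 588, below the WT range. In hippocampus all 10 were below 0 as well (median −0.40 against 0.0012 over all genes), and 0 were called, against 0.128% of all genes. A relation of these genes to *Cdkn1a* was not tested. In hippocampus the genotype effect on *Cdkn1a* was −0.22 (SE 0.15, adjusted p = 0.624, edgeR).

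Levels of different genes were set side by side only in TPM, which is per transcript length. In WT hippocampus the order was *Nr3c2* (50.3 ± 6.27 TPM, SD, n = 5), *Tsc22d3* (49.4 ± 4.91), *Hsd11b1* (41.8), *Sgk1* (37.6), *Fkbp5* (26.7) and *Nr3c1* (22.7), then *Crhr1* (9.47) and *Cdkn1a* (6.14). The ranges of neighbours overlapped except between *Nr3c1* and *Crhr1*. Null hippocampus began with *Nr3c2* (49.8 ± 11.4 TPM) and *Tsc22d3* (49.0) as well, with *Sgk1* (39.6) ahead of *Hsd11b1* (34.2), which overlapped. In WT neocortex *Tsc22d3* stood alone at 63.9 TPM, *Sgk1* (37.0) and *Nr3c1* (34.4) overlapped below it, and the other 5 genes followed without a gap from *Hsd11b1* (22.5) to *Fkbp5* (11.3). Null neocortex had the same first 5 places, from *Tsc22d3* (63.8 TPM) to *Crhr1* (18.7), with a further gap before *Fkbp5* (14.5), *Nr3c2* (13.6) and *Cdkn1a* (13.0). The place of *Tsc22d3* rests in part on Tsc22d3-202, an annotated processed transcript, which held 31.9 to 39.8% of its TPM by group.

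Of the 8 genes, 6 had at least 2 transcripts with 5% or more of their TPM, and the share of the most abundant one was compared in 24 tests. None passed an adjusted p of 0.05 (exact permutation tests of 5 against 5, two-sided, smallest possible p = 0.00794). A single test at that smallest p cannot pass after adjustment over 24 tests, so full separation of 1 share could not be called. The smallest p values were at *Sgk1*. Sgk1-201 held 57.6, 65.7, 70.3, 58.3 and 69.0% of *Sgk1* TPM in WT neocortex and 47.8, 49.9, 43.6, 49.5 and 44.6% in null neocortex, so the genotypes did not overlap. The means were 64.2 ± 5.93% and 47.1 ± 2.86% (SD, n = 5), a difference of −17.1 percentage points (exact permutation p = 0.00794, adjusted p = 0.0952 over 24 tests). From estimated counts instead of TPM the difference was −13.7 points. In hippocampus the share was 59.1 ± 4.29% in WT and 63.5 ± 9.02% in null mice, with overlapping ranges. Null hippocampus and null neocortex did not overlap either. Their difference was 16.3 percentage points (exact permutation p = 0.00794, adjusted p = 0.0952 over 24 tests), and both differences involve the null neocortex group. Sgk1-206, of 859 bases, held 23.9 ± 2.56% in null and 11.8 ± 4.18% in WT neocortex. *Crhr1* had 1 transcript, and Fkbp5-201 held 86.7 to 98.2% of *Fkbp5* TPM by group.

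**Figure D4:**
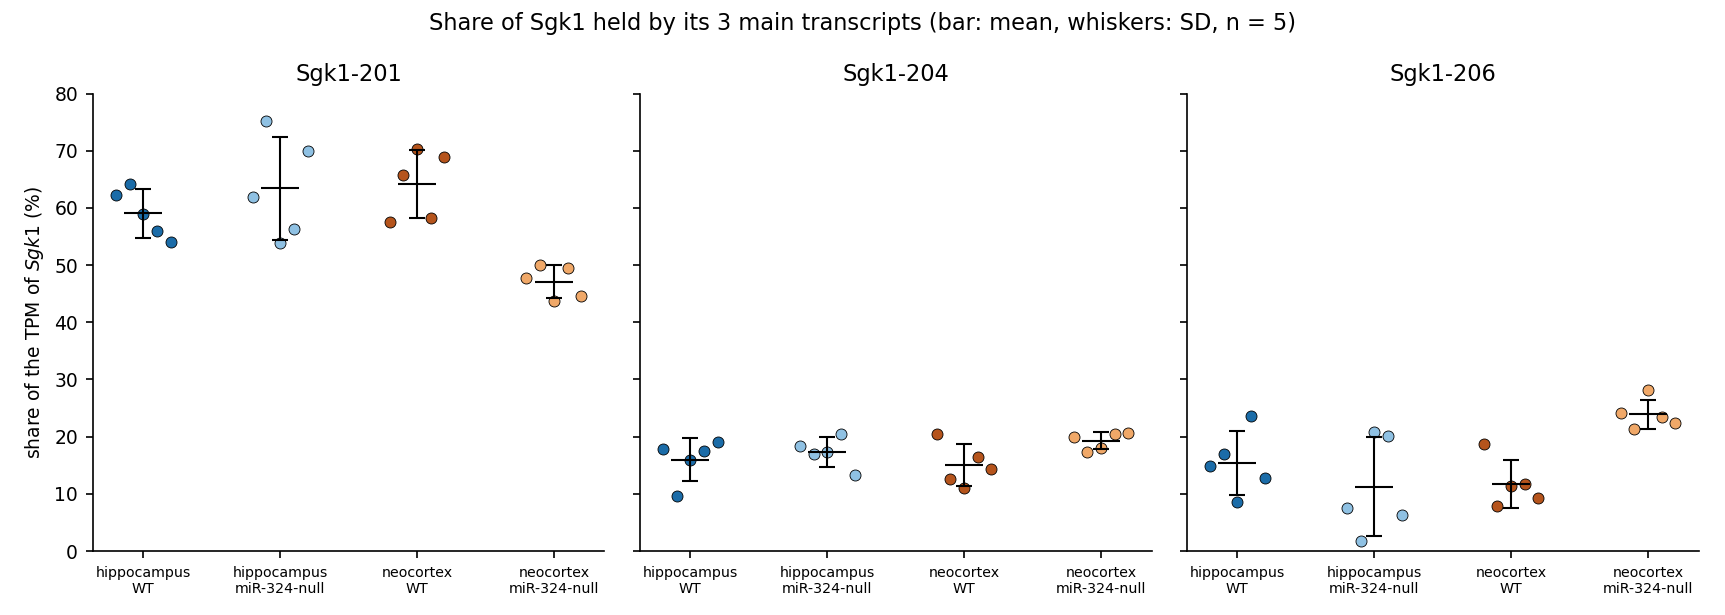
Share of *Sgk1* TPM (percent, axis from 0) held by its 3 most abundant transcripts, among them Sgk1-201 and Sgk1-206, in every sample, by tissue and genotype, with points for samples and bars for the mean and SD (n = 5). The Sgk1-201 share is 57.6 to 70.3% in WT neocortex and 43.6 to 49.9% in null neocortex.

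Whether the glucocorticoid-induced genes vary together was examined among *Fkbp5*, *Sgk1*, *Tsc22d3* and *Cdkn1a*, 6 pairs in each tissue and 12 in all, on log2 CPM minus the mean of the genotype. In neocortex *Sgk1* and *Tsc22d3* had r = 0.85 (n = 10, permutation p = 0.00081, adjusted p = 0.00972) and rho = 0.93 (permutation p = 0.00037, adjusted p = 0.00444). Without the 2 samples farthest from the median of *Sgk1*, r was 0.60, and without WT sample 3, high in both genes, it was 0.69 (n = 9, permutation, adjusted p = 0.281), so the relation rests in part on that sample. On log2(TPM + 0.5) r was 0.75 (adjusted p = 0.139). In hippocampus r was 0.07 for the same pair (adjusted p = 0.916). No other pair passed, and the next smallest adjusted p of r was 0.297 (permutation, *Tsc22d3* and *Cdkn1a* in neocortex, r = 0.64). *Fkbp5* in neocortex had r = −0.41 with *Sgk1*, −0.18 with *Tsc22d3* and 0.13 with *Cdkn1a*. In hippocampus these were 0.53, −0.10 and 0.01.

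Samples of the same genotype and number were compared between tissues for each of the 8 genes. *Sgk1* deviated together in the pairs, with r = 0.90 (10 pairs, permutation p = 0.0008, adjusted p = 0.0064 over 8 genes) and rho = 0.82 (permutation p = 0.00582, adjusted p = 0.0466). Within the WT pairs r was 0.96 and within the null pairs 0.82, from 5 pairs each. Without the 2 pairs farthest from the median r was 0.72, and without both WT samples 3 it was 0.77 (permutation p = 0.0152, adjusted p = 0.105). On log2(TPM + 0.5) r was 0.70 (adjusted p = 0.197). *Nr3c2* gave r = −0.64 (permutation p = 0.0373, adjusted p = 0.149), and the other 6 genes gave r from −0.26 to 0.37. A high r from 5 pairs was not confined to *Sgk1*: *Hsd11b1* had 0.92 within the WT pairs and −0.58 within the null pairs. Within each pair, the correlation of deviations over all genes ran from −0.102 to 0.177. That is a different measure from the r of 1 gene over 10 pairs and gives no background for it. How many of all genes reach so high an r over the pairs was not tested.

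**Figure D5:**
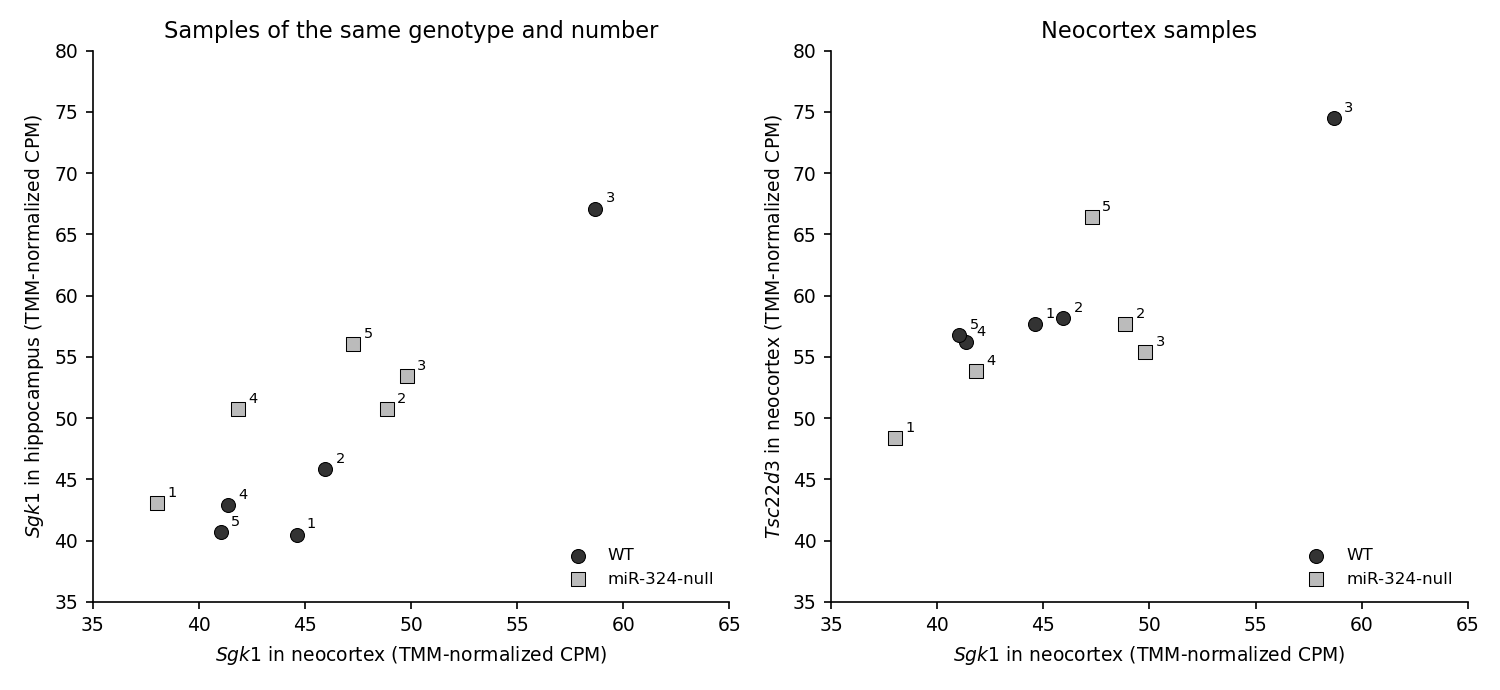
Level of *Sgk1* in the 10 neocortex samples (TMM-normalised CPM) against *Sgk1* in the hippocampus sample of the same genotype and number (left) and against *Tsc22d3* in the same neocortex sample (right), with sample numbers beside the points and symbols by genotype. In both panels WT sample 3, at 58.7 CPM of *Sgk1*, is the point farthest to the upper right, and neither axis starts at 0.

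For each of the 8 genes, the 3 most similar genes were found by Pearson r over the 20 samples after subtracting group means, among 11742 genes with a mean of at least 5 CPM. These are descriptions over libraries that share depth and dissection. *Nr3c1* was closest to *Usp32* (0.95), *Lrrc8b* (0.93) and *Cdk19* (0.93), and *Crhr1* to *Plcxd2* (0.93), *Sept6* (0.90) and *Rxfp1* (0.90). *Nr3c2* was closest to *Dpp6* (0.89), *Gria1* (0.86), which encodes an AMPA receptor subunit, and *Dscaml1* (0.86). *Fkbp5* was closest to *Ehd1* (0.87), *Pgbd5* (0.86) and *Olfm1* (0.85), and *Cdkn1a* to *Jdp2* (0.85), the immediate early gene *Egr3* (0.82) and *Psmc6* (0.82). The highest r was lower for *Sgk1* (*Ube2l6* 0.82, *Hspa14* 0.82, *Zfp189* 0.75), *Tsc22d3* (*Rasl11b* 0.78, *Taf8* 0.77, *Ess2* 0.77) and *Hsd11b1* (*Pnpla7* 0.74, *Galnt1* 0.74, *Olfr287* 0.73).

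Other genes of the pathway were taken from 5 lists of 135 genes, of which 116 were tested. Between genotypes 0 of the 116 were called in either tissue by edgeR, against 0.128% of all genes in hippocampus and 0.315% in neocortex. At an unadjusted p under 0.05 there were 17 in hippocampus (11.1% of all genes) and 11 in neocortex (12.2% of all genes). DESeq2 called 2 in each, against 0.941% and 1.61% of all genes. For the difference of the genotype effect between tissues edgeR called 0, against 0.0195% of all genes. There were 7 at an unadjusted p under 0.05 (5.57% of all genes), and DESeq2 called 1 (0.076%). Between tissues 43 were called in WT mice (26 higher and 17 lower in hippocampus, 37.1%, against 36.1% of all genes) and 37 in null mice (21 higher and 16 lower, 31.9%, against 27.4%). By direction, 18.1% of all genes were higher and 18% lower in WT hippocampus, and 13.8% and 13.6% in null hippocampus, against which the counts of each list below are to be read.

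Among hormone, transport and CRH-system genes, 12 of 23 were tested, with 2 higher and 2 lower in WT hippocampus and 1 and 4 in null hippocampus. *Crh*, the releasing hormone that acts on *Crhr1*, was lower in hippocampus, at 1.16 ± 0.427 against 3.65 ± 0.340 CPM in WT (log2 fold change −1.65) and −1.70 in null mice. The second CRH receptor, *Crhr2*, was higher in WT hippocampus by 1.74 on the log2 scale and was not called in null mice (0.28, adjusted p = 0.561, edgeR). *Adcyap1*, which encodes the neuropeptide PACAP, was lower in both genotypes (log2 fold changes −1.66 in WT and −1.14 in null mice), and its receptor *Adcyap1r1* was higher by 0.33 in WT and not called in null mice (0.12). In null mice *Crhbp*, the CRH-binding protein, was higher by 0.45, and *Abcb1a*, a drug and steroid efflux pump, was lower (log2 fold change −0.36), while neither was called in WT (0.19 and −0.16).

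Of 28 chaperones and coregulators of the receptors, all tested, 6 were higher and 3 lower in WT hippocampus and 5 and 5 in null hippocampus. The differences were small. *Hdac1*, a histone deacetylase, was higher by 0.55 in WT and 0.56 in null mice. The coactivator *Ncoa2* was lower (log2 fold changes −0.24 and −0.38).

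Of 40 further glucocorticoid-induced genes 38 were tested, with 11 higher and 4 lower in WT hippocampus and 11 and 1 in null hippocampus. *Rasd1*, dexamethasone-induced Ras1, had the largest difference of all listed genes, with 30.4 ± 3.54 CPM in WT hippocampus and 2.64 ± 0.341 CPM in WT neocortex (SD, n = 5, log2 fold change 3.52, SE 0.11, adjusted p = 2.0e-10, edgeR). In null mice its means were 23.1 ± 3.48 and 4.15 ± 1.499 CPM (log2 fold change 2.48). The transcription factors *Cebpd* (2.52 in WT, 1.96 in null mice), *Bcl6* (1.01 and 0.73) and *Cebpb* (0.94 and 0.92) were also higher in hippocampus.

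Of 23 p53 pathway genes 20 were tested, with 3 higher and 5 lower in WT hippocampus and 2 and 3 in null hippocampus. *Gadd45a*, a growth arrest gene, was lower in hippocampus, as *Cdkn1a* was, at 3.24 ± 0.483 against 7.24 ± 0.812 CPM in WT (log2 fold change −1.16) and −0.94 in null mice. *Phlda3* was lower too (log2 fold changes −0.55 and −0.47), while *Gadd45g* was higher by 0.59 in WT and not called in null mice (0.52). Of 21 mineralocorticoid and SGK1 effectors 18 were tested, with 4 higher and 3 lower in WT hippocampus and 2 and 3 in null hippocampus. *Foxo1*, a transcription factor that SGK1 phosphorylates, was higher in hippocampus, at 44.7 ± 10.1 against 20.6 ± 3.15 CPM in WT (log2 fold change 1.12) and 0.92 in null mice. *Foxo3* was lower (log2 fold changes −0.62 and −0.74). The sodium channel subunit *Scnn1a* was higher by 0.70 and 0.84.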

How the data were processed

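Stranded mRNA libraries of 20 samples were sequenced on a Illumina NextSeq instrument. The authors pseudo-aligned the reads to a mouse GRCm38 Ensembl transcriptome with kallisto and deposited estimated counts and TPM for 115270 transcripts per sample. The submitters' processing notes name GRCh38, but the identifiers are of mouse, and the kallisto version is not given in the sources used here. Transcripts were matched to GENCODE mouse genes (113580 of 115270), summed per gene and rounded to whole counts. Groups were taken from the labels, no pair of samples held identical values, and depth was 12752439 to 19617765 estimated counts per sample. The lowest of the 8 genes, *Cdkn1a*, rested on 56.0 to 115 estimated counts per hippocampus sample, so counting error weighs most there.

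edgeR 4.0.16 in R 4.3.3 gave the main results (filterByExpr, TMM, glmQLFit and glmQLFTest, no block), fitted over all genes for each genotype comparison within a tissue, each tissue comparison within a genotype, and their interaction, with Benjamini-Hochberg adjustment and a threshold of 0.05. Shares and correlations were tested with scipy 1.17.1 by exact permutation or 100000 resamples. The scripts were tested on simulated data. The alternatives tried were DESeq2 1.42.0, other scalings and filters, an offset for transcript length, a replicate block, the leaving out of each sample, and, chosen after seeing the data, the leaving out of 2 hippocampus samples with high choroid plexus markers, a marker sum of the other tissue as a covariate, and correlations without WT samples 3.

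The genes named were the 8 genes, at most the 4 largest called genes of each pathway list and comparison, the 3 genes most like each of the 8, and *Egr1*, which was named after its value was seen. The 8 genes and the lists were chosen with earlier results of these data known. The named genes leave out 1 gene of the pathway lists, which is not reported here.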

Additional observations from a re-analysis of the deposited data

Results flagged for a closer look

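In each of the 32 groups of 5 samples (8 genes in 4 groups), the highest and lowest sample were compared with the rest by Dixon's test, which picks out about 1 in 20 groups by chance. It picked out 5. In 3 of them the sample was WT sample 3: *Sgk1* was 67.1 CPM in hippocampus, where the other 4 WT samples ran from 40.5 to 45.8 CPM, *Sgk1* was 58.7 CPM in neocortex, where they ran from 41.0 to 46.0 CPM, and *Tsc22d3* was 74.5 CPM in neocortex, where they ran from 56.2 to 58.2 CPM. *Hsd11b1* was 20.8 CPM in neocortex WT sample 2, with the other 4 at 13.8 to 14.9 CPM. *Crhr1* was 30.8 CPM in neocortex null sample 5, the sample whose hippocampal-field marker sum was 177 CPM, with the other 4 at 23.1 to 24.8 CPM.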

How the results depend on the processing

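The number of the 8 genes called was within 1.5 times of the main count under every alternative run, except in neocortex between genotypes, where DESeq2 called 1 and leaving out 1 sample at a time gave 0 to 2. Directions turned only for genotype or tissue differences that were not called. In hippocampus, null against WT, *Nr3c1* was 0.0026 with the marker sum as covariate and *Fkbp5* −0.015 without the samples of high choroid plexus markers, and leaving out 1 sample gave −0.13 to 0.011 and −0.063 to 0.11. In neocortex the covariate gave 0.042 for *Nr3c1*, 0.031 for *Sgk1*, 0.055 for *Tsc22d3* and 0.12 for *Crhr1*. The length offset gave −0.028 (edgeR) and −0.031 (DESeq2) for *Nr3c2* and 0.10 by both tools for *Sgk1*, and leaving out 1 sample gave −0.076 to 0.074 for *Sgk1*. Between tissues in WT, *Sgk1* was −0.12 without the samples of high choroid plexus markers and −0.12 to 0.14 on leaving out 1 sample. For the difference of the genotype effect, the offset gave −0.025 and −0.0242 for *Nr3c1*, 0.011 and 0.013 for *Nr3c2* and −0.028 and −0.0270 for *Sgk1* (edgeR and DESeq2), and leaving out 1 sample gave −0.033 to 0.11 for *Nr3c1* and −0.023 to 0.13 for *Tsc22d3*. On log2(TPM + 0.5) the relations with an adjusted p of at most 0.05 went from 1 to 0 both within tissues and between tissues (r = 0.75 and 0.70), and without WT samples 3 these r were 0.69 and 0.77. The causes were not tested.

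Between the tissues of a genotype, same-numbered samples deviated together by more than 0.1 in 1 of 5 pairs in WT and 3 of 5 in null mice. The correlations over genes ran from −0.102 to 0.177, and 2 of 5 (WT) and 3 of 5 (null) correlated best with their own number. Between WT and null mice, which are different animals, both counts were 1 of 5 in each tissue (−0.172 to 0.121). The samples were treated as sharing only a number, and whether the tissues of a number came from 1 mouse is not known. With a replicate block the calls over all genes were 4 (hippocampus) and 30 (neocortex) between genotypes, 5044 (WT) and 4041 (null) between tissues and 0 for the interaction. Of the 8 genes 0, 0, 7, 8 and 0 were called, the eighth being *Sgk1* in null mice (0.18, adjusted p = 0.0468, edgeR). The exact paired permutation test of a *Sgk1* share cannot go below p = 0.0625.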
